A study of Mus musculus with 4 samples.

Results

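The interferon response genes examined here are 34 mouse genes that sense viral RNA, carry the interferon signal to the nucleus or act as its antiviral products. Chromatin at these genes was compared between HAT1+/+ (WT) and HAT1-/- (KO) immortalized mouse embryonic fibroblasts (imMEFs) by ATAC-Seq, which reads out how often the Tn5 transposase can cut each stretch of DNA. HAT1 is the acetyltransferase that modifies newly made histone H4. The 4 libraries came from 4 C57bl6 lines, 2 WT and 2 KO, which had been made from embryos and immortalized with the SV40 T antigen. The labels name no treatment, so the libraries describe cells without added interferon. Because each library is a separate line, a difference between genotypes and a difference between lines cannot be told apart beyond what 2 lines per genotype allow. WT replicate 1 and KO replicate 2 share a number in their line names, the other 2 lines share none, and the labels do not say what the number marks.

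A site, meaning a region of open chromatin in the deposited table, was taken for a gene if it overlapped the gene body or lay within 10 kb upstream of the transcription start site (TSS) in the GENCODE annotation of mm10. This gave 90 of the 82325 sites. A promoter site lay within 3 kb of a TSS of a member gene, a distal site lay farther than 3 kb from every annotated TSS, and 11 sites lay at the TSS of a neighbouring gene only. The 90 sites held 56 promoter sites and 23 distal sites. All 34 genes had at least 1 promoter site, and 67.7% of 21911 protein-coding genes in the annotation did. The members were chosen with earlier results of these data known, and 33 of them counted as protein-coding, all but Mx2. No trait of interferon genes is therefore read from this difference.

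Cells detect viral RNA with cytoplasmic helicases, which signal through IRF3 and IRF7 to switch on interferon genes. Secreted interferon then acts through Janus kinases on STAT2 and IRF9, which bring transcription to genes with an interferon-stimulated response element (ISRE). A second element, called GAS, serves the response to interferon gamma. In fibroblasts a low, constant level of interferon signalling is known to keep many of these genes ready for induction.

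Promoter sequences are shown because the ISRE is a feature that many of these genes share and that the choice of members did not use. RefSeq promoters of GRCm38.p6, running from 250 bases before to 50 bases after the start, were found for 27 of the 34 genes, and where a gene had several, only the promoter nearest the GENCODE start was searched. No entry was found for Mx1, Mx2, Dhx58, Usp18, Parp9, Parp14 and Nlrc5. In the sequences below, written 5′ to 3′ along the gene, capitals mark the ISRE core, taken here as 2 copies of GAAA set 2 bases apart, on either strand. In the promoters shown for Ifit2 and Irf1, which hold no core, they mark the GAS form TTCNNNGAA.
Isg15, chr4:156200769-156201068, minus strand: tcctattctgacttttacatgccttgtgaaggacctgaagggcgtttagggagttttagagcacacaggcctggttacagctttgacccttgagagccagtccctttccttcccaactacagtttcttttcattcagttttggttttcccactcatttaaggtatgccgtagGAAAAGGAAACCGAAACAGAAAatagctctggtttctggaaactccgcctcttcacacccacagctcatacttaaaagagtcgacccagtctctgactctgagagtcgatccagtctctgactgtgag
Ifit1, chr19:34640639-34640938, plus strand: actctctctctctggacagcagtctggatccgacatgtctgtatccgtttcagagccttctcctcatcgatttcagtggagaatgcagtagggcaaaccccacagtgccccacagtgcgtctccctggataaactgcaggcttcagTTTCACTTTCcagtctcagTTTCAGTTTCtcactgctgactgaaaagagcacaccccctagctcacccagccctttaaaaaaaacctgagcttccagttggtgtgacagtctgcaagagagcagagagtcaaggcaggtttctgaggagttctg
Ifit3, chr19:34583279-34583578, plus strand: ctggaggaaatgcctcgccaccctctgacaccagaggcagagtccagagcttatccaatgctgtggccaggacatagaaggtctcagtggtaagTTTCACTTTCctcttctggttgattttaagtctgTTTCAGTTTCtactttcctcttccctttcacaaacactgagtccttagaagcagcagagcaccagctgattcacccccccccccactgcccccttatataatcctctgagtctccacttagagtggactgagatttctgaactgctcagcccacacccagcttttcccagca
Rsad2, chr12:26456403-26456702, minus strand: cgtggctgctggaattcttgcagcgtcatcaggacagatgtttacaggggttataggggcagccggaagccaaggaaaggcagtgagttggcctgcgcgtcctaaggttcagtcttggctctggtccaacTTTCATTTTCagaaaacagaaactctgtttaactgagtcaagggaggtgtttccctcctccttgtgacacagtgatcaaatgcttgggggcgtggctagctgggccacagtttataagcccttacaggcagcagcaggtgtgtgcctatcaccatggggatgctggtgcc
Bst2, chr8:71537423-71537722, minus strand: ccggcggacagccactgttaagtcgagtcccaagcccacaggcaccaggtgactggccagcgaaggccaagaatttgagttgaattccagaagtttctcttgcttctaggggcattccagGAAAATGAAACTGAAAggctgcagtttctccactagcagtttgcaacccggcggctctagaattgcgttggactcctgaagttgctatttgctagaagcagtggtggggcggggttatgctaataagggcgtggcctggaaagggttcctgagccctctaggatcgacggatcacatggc
Gbp2, chr3:142620413-142620712, plus strand: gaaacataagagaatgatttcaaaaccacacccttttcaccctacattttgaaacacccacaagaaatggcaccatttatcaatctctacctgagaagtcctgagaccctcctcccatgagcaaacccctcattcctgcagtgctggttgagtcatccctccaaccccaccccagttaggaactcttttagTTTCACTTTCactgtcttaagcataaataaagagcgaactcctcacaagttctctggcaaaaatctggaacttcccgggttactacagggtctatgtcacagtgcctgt
Ifit2, chr19:34550444-34550743, plus strand: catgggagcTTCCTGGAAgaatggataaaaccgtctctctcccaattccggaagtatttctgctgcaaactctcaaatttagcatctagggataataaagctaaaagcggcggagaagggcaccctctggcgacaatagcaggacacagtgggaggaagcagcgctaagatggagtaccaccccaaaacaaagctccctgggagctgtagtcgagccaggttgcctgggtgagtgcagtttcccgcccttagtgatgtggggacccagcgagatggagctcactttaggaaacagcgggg
Irf1, chr11:53769764-53770063, plus strand: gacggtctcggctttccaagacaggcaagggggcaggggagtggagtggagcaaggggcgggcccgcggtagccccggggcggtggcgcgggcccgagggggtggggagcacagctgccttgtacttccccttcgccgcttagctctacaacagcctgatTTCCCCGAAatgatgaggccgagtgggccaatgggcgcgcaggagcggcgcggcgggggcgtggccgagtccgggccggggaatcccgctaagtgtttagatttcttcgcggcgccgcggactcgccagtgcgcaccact

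The ISRE core lay in 12 of the 27 promoters (44.4%), against 3.443% of 32851 RefSeq promoters of the same length. Its longer form, the core followed directly by CT and so always overlapping it, lay in 6 of them (22.2%) against 0.271%. These 6 were Ifit1, Ifit3, Ddx58, Bst2, Gbp2 and Gbp3. Isg15, Bst2 and Gbp3 hold overlapping copies of the core, and both elements of Ifit1 face the minus strand. GAS forms lay in 7 promoters (25.9%, against 8.298%), and in Bst2 the GAS form overlaps the ISRE. The NF-kB form, GGGA and TTCC set 2 bases apart, lay in 2 promoters (7.4%, against 1.467%) and the AP-1 form TGANTCA in 5 (18.5%, against 7.808%). All motifs were searched on both strands, and a match is a description of letters, not a measured binding site.

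Of 18 ISRE cores in the 27 promoters, 13 lay wholly inside a site, and these belonged to 9 of the 12 genes with a core. The 3 genes without one inside were Ifit3, Ddx58 and Gbp3. In Ifit3 the 2 cores began 15 and 49 bp beyond the edge of the nearest site, in Ddx58 the gap was 7 bp, and in Gbp3 they spanned or followed the edge. In windows of 300 bases around site centres, 15 of the 56 promoter sites held the core (26.8%, against 2.76% of 29130 promoter sites). Among the 23 distal sites it was 1 (4.3%, against 3.764% of 53195 distal sites). The AP-1 form was found in 13 promoter sites (23.2%, against 22.53%) and in 6 distal sites (26.1%, against 45.972%).

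Values are normalized counts, which are read counts per site after the authors had divided each library by a factor and rounded the result. Normalized totals over all sites ranged from 8008069 to 8516263, while the reads behind them were estimated at about 9420000 and 11420000 in WT and 7830000 and 5650000 in KO. KO values thus rest on fewer reads. Fibroblast marker genes had promoter sites at 14 of 15 genes, with summed values from 5798 to 7041 in the 4 libraries. Of 10 blood markers 3 had one, with sums from 312 to 371, and the defining genes Ptprc, Spi1, Itgam, Cd3e and Cd79a had none. Endothelial and epithelial markers had promoter sites at 4 of 5 genes each, with sums from 226 to 349 and from 206 to 367. The Hat1 promoter site read 390 and 384 in WT and 438 and 368 in KO, and as a promoter can stay open beside a deletion it does not check the labels. In bulk libraries a lower value from fewer open cells and one from less open chromatin per cell cannot be told apart.

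No interferon response gene differed between the genotypes at thresholds taken from those the study gives for primary MEFs. They were applied here as an unadjusted p under 0.01 together with a 2-fold change, or 1 on the log2 scale, in either direction. By limma on log2(value + 1), 0 of the 56 promoter sites were called, with a background of 0.285% of all promoter sites, and 0 of the 23 distal sites, with a background of 0.421%. None of the 82325 sites had an adjusted p under 0.05. At an unadjusted p under 0.05, 1 member promoter site and 0 distal sites were found, against 3.13% of sites of either kind, which for so few members is a share near the background. The median log2 fold change of KO against WT was -0.03 over member promoter sites and 0.011 over all promoter sites. For distal sites the medians were 0.035 and 0.002. Both medians over the members turned sign under other settings, so no direction is read from them.

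The promoter fold changes, each a difference between means of 2 lines, were smaller at the median than the differences between single lines of the same genotype. Over the 56 member promoter sites the median absolute log2 fold change was 0.118, while the median absolute difference was 0.168 from one WT line to the other and 0.293 from one KO line to the other. All promoter sites had medians of 0.19, 0.238 and 0.3 for these quantities. Means of 2 lines vary less than single lines, so this order can arise without any effect and nothing is read from it. The WT and KO libraries did not overlap at 11 member promoter sites with KO lower (background 14.8%) and at 10 with KO higher (background 16.9%). In 38 of the 56 sites (67.9%) the 95% interval of the fold change lay within 2-fold in either direction, as it did for 53.2% of all promoter sites. Distal sites were known less well. Only 5 of the 23 intervals (21.7%) lay within 2-fold, as it did for 20.6% of all distal sites. KO was lower without overlap at 4 (background 14.0%) and higher at 2 (background 13.3%).

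**Figure D1:**
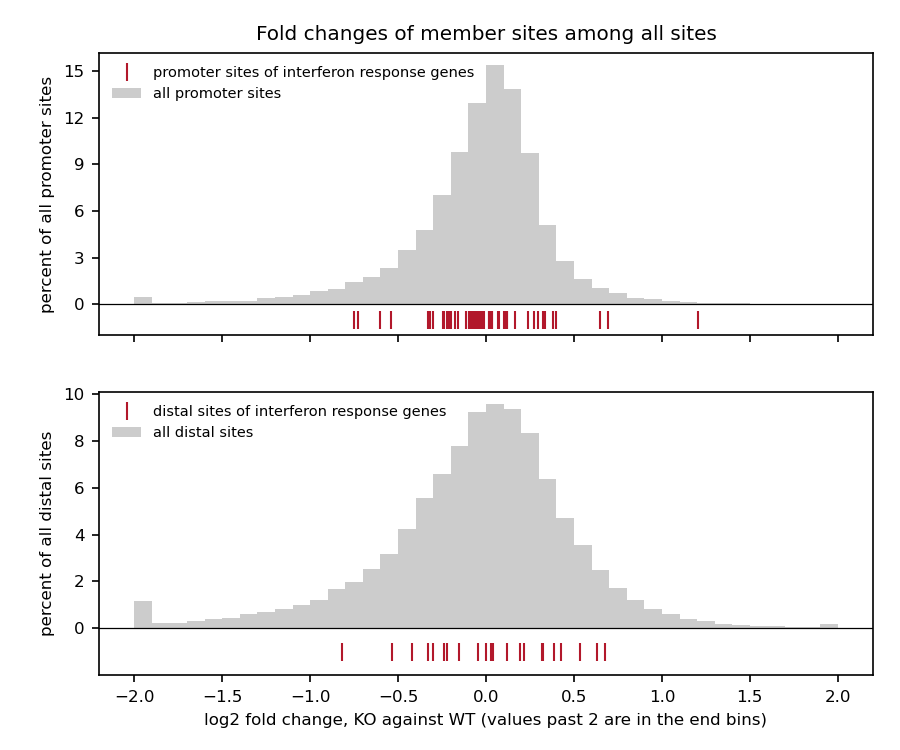
Log2 fold changes of KO against WT (x axis) for all promoter sites (top) and all distal sites (bottom), as bars giving the percent of sites in each bin, with 1 red tick per site of an interferon response gene. The member sites lie within the bulk of all sites, and 1 promoter tick, at 1.206, lies past 1.

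The sensors of viral RNA had open promoters in all 4 libraries. Ddx58, which encodes RIG-I, read 127 and 129 in WT and 139 and 131 in KO at its strongest promoter site, a log2 fold change of 0.08 (95% interval -0.49 to 0.64). Dhx58, which encodes the regulator LGP2, read 168 and 203 in WT and 190 and 177 in KO. Ifih1, which encodes the long-RNA sensor MDA5, read 180 and 168 in WT and 169 and 305 in KO, with a log2 fold change of 0.38 (-0.36 to 1.12). KO replicate 2 alone was high at Ifih1, and KO replicate 1 lay within the WT range.

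Among the transcription factors, which relay the signal, no promoter site passed the test. At the promoter sites of Irf2 and the strongest of Stat2 the WT and KO values did not overlap. Over all promoter sites this was so at 14.8% with KO lower and at 16.9% with KO higher. Stat2 had the highest level per length of the strongest promoter sites, a mean of 510 normalized counts per kb. It read 362 and 407 in WT and 408 and 420 in KO (log2 fold change 0.11, -0.21 to 0.43). There 407 in WT lay next to 408 in KO. The other Stat2 promoter site read 42 and 31 in WT and 25 and 33 in KO, with overlap. Irf9, the DNA-binding partner of STAT2, read 319 and 229 in WT and 207 and 314 in KO. Each genotype had 1 high and 1 low line there, so the groups overlapped. On chromosome 14, which holds Irf9, the median of WT replicate 1 stood 0.28 above its share on the log2 scale. The log2 fold change of Irf9 was -0.08, and 0.10 with each library centred on its own median per chromosome. Irf1, an activator with a GAS in its promoter, read 347 and 310 in WT and 339 and 350 in KO. Irf7, the factor that amplifies interferon production, read 176 and 179 in WT and 176 and 171 in KO. Values of Irf3, the constitutive factor activated first, were 77 and 62 in WT and 58 and 80 in KO. For Irf1, Irf3 and Irf7 the genotypes overlapped or shared a value.

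Irf2, a repressor that competes with IRF1, was the transcription factor with the most sites, and its promoter sites did not move together. The strongest, 1.38 kb into the gene, read 348 and 321 in WT and 292 and 242 in KO, a log2 fold change of -0.33 (-0.74 to 0.08). The site over the TSS itself read 230 and 189 in WT and 234 and 259 in KO (0.24, -0.24 to 0.71). KO was thus lower without overlap at one and higher without overlap at the other, neither past the threshold. A weak site beside an alternative TSS, 53.08 kb into the gene, read 32 and 23 in WT and 15 and 17 in KO (-0.73, -1.90 to 0.45).

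The antiviral effectors covered the widest range of levels. Adar, which edits double-stranded RNA, had its strongest site at an inner TSS with 308 and 272 in WT and 312 and 337 in KO. Bst2, which tethers virus particles to the cell, read 263 and 231 in WT and 266 and 239 in KO, and its ISRE lay inside this site. Eif2ak2, the kinase PKR that stops translation, read 189 and 221 in WT and 206 and 159 in KO. Their log2 fold changes were 0.16 (-0.22 to 0.54), 0.03 (-0.40 to 0.47) and -0.17 (-0.73 to 0.38). The TSS site of Adar read 219 and 224 in WT and 203 and 173 in KO, lower in KO without overlap (-0.24, -0.72 to 0.24).

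Isg15, a ubiquitin-like protein joined to many targets, had 2 promoter sites among the 90 sites. The site over its TSS, which holds the 3 overlapping ISRE cores printed above, read 105 and 109 in WT and 88 and 125 in KO (log2 fold change -0.03, -0.73 to 0.68). The other, upstream and centred at -2.57 kb, read 191 and 202 in WT and 168 and 214 in KO. This upstream site lay nearest to a TSS of another gene, AW011738, and as the stronger site it stands for Isg15 in the figures. At both sites KO replicate 1 was the lowest of the 4 libraries and KO replicate 2 the highest. Xaf1, a promoter of cell death, read 123 and 125 in WT and 111 and 105 in KO. Oasl2, of the oligoadenylate synthetase family, read 90 and 73 in WT and 70 and 69 in KO. Samd9l, a restriction factor for poxviruses, read 39 and 36 in WT and 33 and 30 in KO. At these 3 genes both KO libraries lay below both WT libraries, with log2 fold changes of -0.20, -0.22 and -0.25, and each 95% interval included 0.

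**Figure D2:**
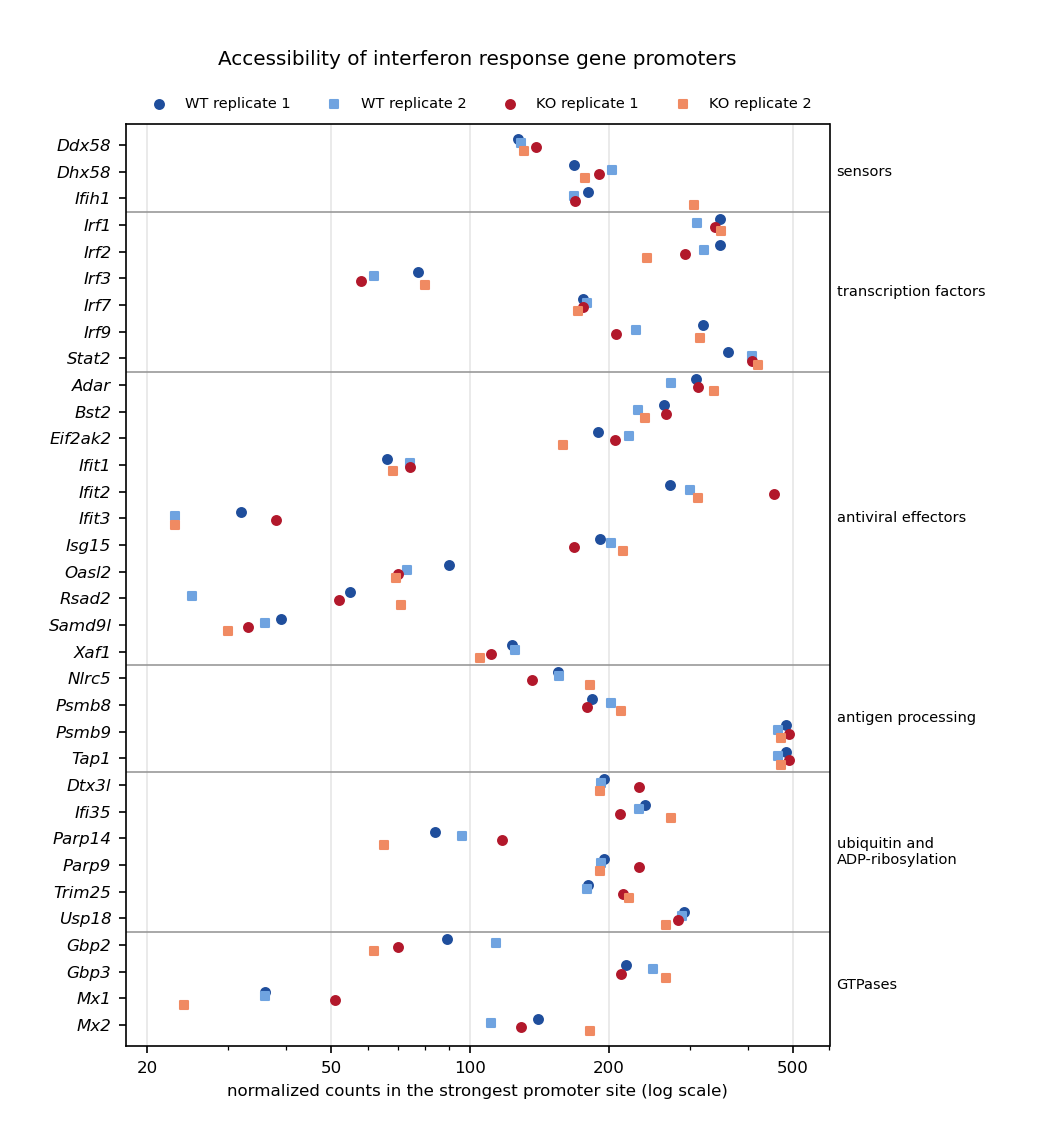
Normalized counts (x axis, log scale) at the strongest promoter site of each of the 34 genes, grouped by role, with 1 point per library: circles for replicate 1 and squares for replicate 2, blue for WT and red or orange for KO. Colours intermix in most rows, and KO replicate 1 stands apart at Ifit2 with 456 and KO replicate 2 at Ifih1 with 305.

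The Ifit genes, whose products bind foreign RNA and hinder its translation, sit in 1 cluster on chromosome 19 and differed widely in openness. Ifit2 had 3 promoter sites. Its TSS site, which spans the GRCm38 positions chr19:34550456-34551288, read 271 and 300 in WT and 456 and 311 in KO (log2 fold change 0.40, -0.12 to 0.92). The next, centred 1.36 kb into the gene, read 187 and 196 in WT and 363 and 248 in KO (0.65, 0.09 to 1.20). It was the only member site with an unadjusted p under 0.05, and its adjusted p by limma was 1.0. At the last, 2.46 kb into the gene, the values were 94 and 126 in WT and 131 and 144 in KO (0.33, -0.32 to 0.99). At all 3 sites both KO libraries lay above both WT libraries, and at the first and second KO replicate 1 was the highest.

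Chromosome 19 as a whole was high in KO replicate 1, so these values need that beside them. The median log2 fold change of the 2573 sites on chromosome 19 was 0.23, it was -0.03 without KO replicate 1, and the median of that library on this chromosome stood 0.35 above its share on the log2 scale. With each library centred on its own median per chromosome, the Ifit2 site at 1.36 kb kept an unadjusted p under 0.05 with a log2 fold change of 0.43, and the TSS site had 0.19. Without KO replicate 1 and uncentred, the site at 1.36 kb had 0.37. That level was not passed without KO replicate 1, nor without WT replicate 1 (0.61) or WT replicate 2 (0.68), where the fold change was kept. The part of the chromosome-wide difference in the Ifit2 values was not tested beyond this.

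Ifit1 and Ifit3 lie on the same chromosome and had lower values. Ifit1 read 66 and 74 in WT and 74 and 68 in KO at its TSS, where both ISRE cores lie inside the site (0.02, -0.70 to 0.74). Ifit3 read 32 and 23 in WT and 38 and 23 in KO, and with a mean of 72.7 normalized counts per kb it had the lowest level per length of the strongest promoter sites. Its second promoter site read 28 and 19 in WT and 25 and 18 in KO. Replicate 1 was higher than replicate 2 in both genotypes at both Ifit3 sites, and the genotypes overlapped at every site of Ifit1 and Ifit3, including a distal site at -3.73 kb of Ifit1 with 42 and 49 in WT and 66 and 41 in KO.

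**Figure D3:**
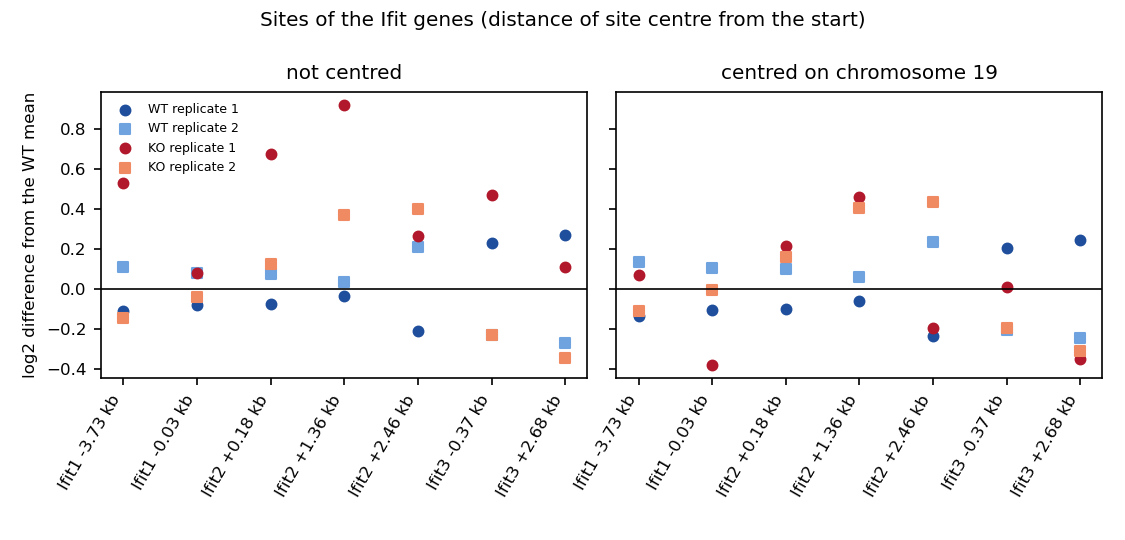
Log2 difference of each library from the WT mean (y axis) at the 7 sites of Ifit1, Ifit2 and Ifit3, named by the distance of the site centre from the start, before (left) and after (right) each library was centred on its chromosome 19 median. KO replicate 1 stands highest on the left at the first and second Ifit2 sites, and on the right both KO libraries lie together at the site at 1.36 kb.

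Rsad2, which encodes the antiviral enzyme viperin, held the only member site that reached a 2-fold difference between the genotype means. The site over its TSS, at chr12:26456140-26456645 of GRCm38, read 45 and 16 in WT and 56 and 72 in KO. Both KO values lay above both WT values. That is a log2 fold change of 1.21 (-0.10 to 2.51), with an adjusted p of 1.0 by limma. The second promoter site, 1.55 kb into the gene, read 55 and 25 in WT and 52 and 71 in KO (0.70, -0.44 to 1.83). WT replicate 2 was the lowest library at both sites, and at the second WT replicate 1 lay among the KO values. Without WT replicate 2 the TSS site had a log2 fold change of 0.49, where the lone WT library is assumed to vary like the KO libraries. Without WT replicate 1 it had 1.92 and an unadjusted p under 0.05, though not under 0.01.

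Genes of antigen processing gave nearly equal values in both genotypes. Tap1, the peptide transporter, and Psmb9, an immunoproteasome subunit, are transcribed apart from 1 shared promoter site, whose reads cannot be divided between them. It read 484 and 465 in WT and 491 and 471 in KO, a log2 fold change of 0.02 (-0.25 to 0.29), the narrowest interval of any strongest promoter site. Psmb8, another immunoproteasome subunit, read 184 and 202 in WT and 179 and 212 in KO. Nlrc5, the activator of MHC class I genes, read 155 and 156 in WT and 136 and 182 in KO. The KO libraries lay on either side of the WT libraries at both genes.

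Genes of ubiquitin-like modification and ADP-ribosylation gave values of the same kind. Usp18, which removes ISG15 from its targets, read 290 and 288 in WT and 282 and 265 in KO. Trim25, a ubiquitin ligase for RIG-I, read 180 and 179 in WT and 214 and 221 in KO. Usp18 was thus slightly lower in KO without overlap (log2 fold change -0.08, -0.46 to 0.30) and Trim25 higher (0.28, -0.18 to 0.73), and both intervals included 0. Parp9 and Dtx3l, partners in 1 ubiquitin ligase complex, share a two-way promoter whose stronger site read 195 and 192 in WT and 232 and 191 in KO. Parp14, an ADP-ribosyltransferase, read 84 and 96 in WT and 117 and 65 in KO. Ifi35, listed with these genes though described as an interferon-induced leucine zipper protein, read 239 and 232 in WT and 211 and 272 in KO. At these genes the 2 KO lines differed more from each other than the 2 WT lines did.

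The interferon-induced GTPases held the lowest promoter fold change of the members. Gbp2, a guanylate-binding protein that attacks the vacuoles of intracellular microbes, read 89 and 114 in WT and 70 and 62 in KO at its TSS site, which holds its ISRE (log2 fold change -0.61, -1.34 to 0.13). The site 0.75 kb into Gbp2 read 42 and 44 in WT and 37 and 17 in KO (-0.75, -1.91 to 0.41). Both KO libraries lay below both WT libraries at these 2 sites. Another, centred at -0.69 kb, read 30 and 25 in WT and 32 and 21 in KO, where the groups overlapped. Without KO replicate 2 the value at 0.75 kb was -0.21, and without KO replicate 1 it was -1.29 with an unadjusted p under 0.05.

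Gbp3, the neighbour of Gbp2, read 218 and 249 in WT and 212 and 265 in KO (0.02, -0.46 to 0.51). Mx1, a dynamin-like GTPase that blocks viral nucleoproteins, read 36 and 36 in WT and 51 and 24 in KO. Its paralog Mx2, a polymorphic pseudogene in GENCODE, read 140 and 111 in WT and 129 and 182 in KO at its strongest site. The genotypes overlapped at the strongest site of all 3 genes.

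**Figure D4:**
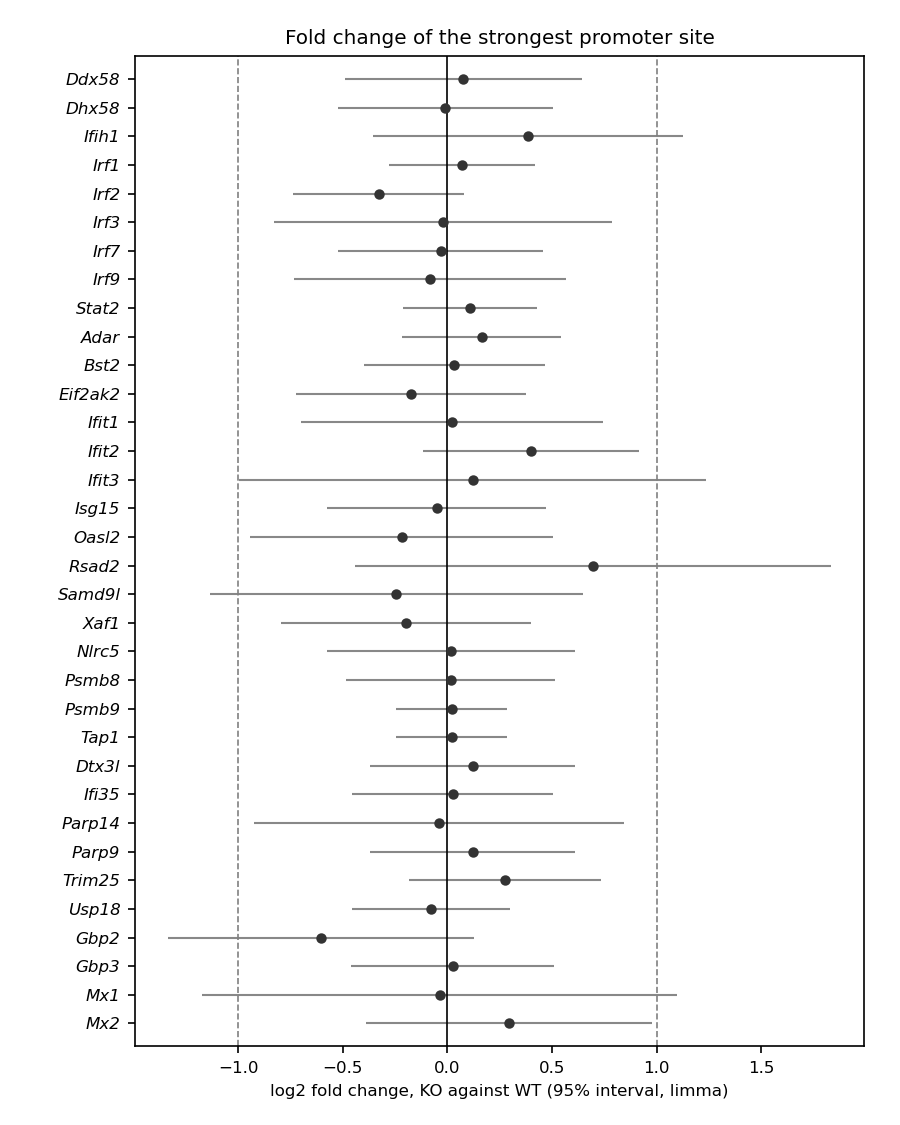
Log2 fold change of KO against WT (x axis) at the strongest promoter site of each gene, with 95% intervals from limma as horizontal bars and dashed lines at a 2-fold change in either direction. Every interval includes 0, and that of the site shared by Tap1 and Psmb9 is the narrowest, from -0.25 to 0.29.

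Of the 23 distal sites, 4 combined WT and KO values that did not overlap with a mean no lower than the median site of the series. Before any filter on the mean, the groups did not overlap at 14.0% of all distal sites with KO lower and 13.3% with KO higher. The share of all distal sites that meet both conditions was not computed, so these 4 are described only. An intronic site 12.2 kb into Adar (chr3:89727072-89727368) read 82 and 61 in WT and 58 and 27 in KO (log2 fold change -0.82, -1.92 to 0.28). An exonic site 58.02 kb into Nlrc5 read 239 and 245 in WT and 238 and 199 in KO (-0.15, -0.61 to 0.30). The Nlrc5 groups were separated by 1 normalized count. KO was higher at an exonic site 16.5 kb into Ifih1, with 49 and 61 in WT and 67 and 77 in KO (0.39, -0.39 to 1.16). An intronic site 103.26 kb into Irf2 read 59 and 72 in WT and 86 and 90 in KO (0.43, -0.30 to 1.15). All 4 intervals included 0. The other distal sites had log2 fold changes up to 0.68, at an Irf2 site where KO replicate 1 read 70 and the other 3 libraries between 26 and 31. The 11 sites at promoters of neighbouring genes had log2 fold changes from -0.50 to 0.42.

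With all promoter sites of a gene summed, which puts more reads behind each value, again 0 members were called. These sums take every site within 3 kb of a TSS, also beyond the gene body. The Isg15 sums, 519 and 523 in WT and 508 and 595 in KO, thus hold more than its 2 sites described above. Of 14840 protein-coding genes in this comparison 43 were called, a background of 0.29%. The 33 protein-coding members had a median log2 fold change of 0.02, against 0.03 for all genes. Of their 95% intervals 28 lay within 2-fold, as did those of 12066 of all 14840 genes. KO was lower without overlap at 5 members (background 13.6%) and higher at 3 (background 21.9%). Ifit2 was the only member with an unadjusted p under 0.05 (background 4.72%). Its sums were 552 and 622 in WT and 950 and 703 in KO with a log2 fold change of 0.48. After centring per chromosome it was 0.27, still with an unadjusted p under 0.05. That level was not passed after quantile normalization (0.35), or without KO replicate 1 (0.26), WT replicate 1 (0.39) or WT replicate 2 (0.57).

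Other genes of the pathway, a list of 58 receptors, kinases, adaptors, other IRF genes and further interferon targets, gave a similar account. Promoter sites were found at 55 of them, and not at Ifnb1, Ifi44 and Ccl5. None was called (background 0.29%), and the median log2 fold change was 0.03. An unadjusted p under 0.05 was found at 2 (background 4.72%), Irf8, lower in KO, and Znfx1, higher in KO with 0.31. KO was higher without overlap at 13 of the genes (background 21.9%) and lower at 6 (background 13.6%). The 3 largest values were all negative and lay at low signals. Sp100, a nuclear body protein, read 92 and 87 in WT and 22 and 66 in KO (-1.20, -2.41 to 0.00). Irf8, a factor of myeloid cells, read 89 and 75 in WT and 49 and 43 in KO (-0.82, -1.57 to -0.07). Irf4, a factor of lymphoid cells, read 71 and 62 in WT and 41 and 38 in KO (-0.74, -1.53 to 0.06). Both KO libraries lay below both WT libraries at all 3 genes, and every adjusted p by limma was at least 0.863.

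Domains of lower accessibility were looked for by averaging the log2 fold change over 25 consecutive sites centred on each site. No member site lay in a window with a mean under -0.58, while 3.44% of all 82325 sites did. Window means at the members ran from -0.46 at Ddx58 to 0.31 at Ifit1, and at Rsad2 they were -0.36 and -0.40, so its sites with positive fold changes lay among neighbours with lower values in KO.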

How the data were processed

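Chromatin accessibility was measured in 2 WT and 2 KO libraries. The authors aligned reads to mm10 with BWA 0.7.12, called peaks with MACS2 2.1.0 and compared genotypes with DESeq2, per the labels and the study methods. Handling of the Tn5 offset and read filters are not given in the sources used here. The deposited values are a score: read counts per site divided by a factor per library and rounded to whole numbers, so a count test was not used. The deposited table also holds the authors' fold changes (raw and shrunken), p-values and adjusted p-values, which were not used. Read totals were estimated from gaps that scaling left among low values and are approximate.

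Log2(value + 1) was fitted for all 82325 sites, and for promoter sums of 14840 genes, with limma 3.58.1 and an intensity trend in R 4.3.3. Fold changes on this scale understate changes of low sites, and adjustment was by Benjamini-Hochberg. The scripts were tested on simulated data. Sites were annotated with GENCODE on GRCm38, and 0 sites lay beyond a chromosome end. Motifs were searched with Python 3.11.15 and pysam 0.24.0. Members and lists were chosen with earlier results of these data known. Values were given for the promoter site with the highest mean of every member, for up to 5 distal sites per direction with groups that did not overlap and a mean at or above the median of 52, and for the 3 companion genes with the largest change. Other sites of Irf2, Ifit1, Ifit2, Ifit3, Isg15, Rsad2, Adar and Gbp2 were described after their values had been seen. Mb21d1 is listed under the symbol Cgas. Replicate numbers follow accession order and name libraries only. An exact permutation of 2 against 2 libraries cannot go below a two-sided p of 0.333. The alternatives were another pseudocount, scalings, centring per chromosome, a filter on low values, other distances, other windows and leaving out each library.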

Additional observations from a re-analysis of the deposited data

How the results depend on the processing

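No member site or gene was called under any alternative that was run. Over all sites 307 were called, 115 (76 lower in KO) when only sites at or above the median value were tested, 0 at an adjusted p under 0.05 in either direction, and 36 to 612 with 1 library left out (14 to 548 lower, 22 to 64 higher), lowest without WT replicate 2, 71 without WT replicate 1 and highest without KO replicate 2. For promoter sums 43 genes were called, 0 with low sums left out, 16 to 152 with 1 library left out (11 to 148 lower, 3 to 5 higher; lowest without WT replicate 1, 18 without WT replicate 2, highest without KO replicate 2), 27 lower and 5 higher after quantile normalization, and 0 higher at equal totals. The member promoter median was -0.098 at equal totals and 0.018 among sites at or above the median value, and -0.042 to -0.002 with 1 library left out. The distal median was -0.032, 0.122 and -0.076 to 0.128 in the same order. The median of member sums was -0.049 at equal totals, -0.021 after quantile normalization and -0.010 to 0.012 with 1 library left out. With windows of 51 sites, 1.111% of member sites lay in a window under -0.58. Of single member values, 34 of 428 at sites and 27 of 144 at genes turned sign with all libraries kept, and 63 of 368 and 37 of 132 with 1 left out, none of them called. The causes were not tested. No paired analysis was possible because the labels give no replicate numbers and only 1 WT and 1 KO line share a number in their names. At the thresholds used, a call required a 2-fold change, so smaller changes could not be called at any site. The interval of the fold change lay within 2-fold at 38 of the 56 member promoter sites and 5 of the 23 member distal sites. Elsewhere a 2-fold change was not excluded. How far the 2 lines per genotype or the fewer reads in KO account for these widths was not tested.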

Other observations

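Sites anywhere in the genome that hold the ISRE within 300 bases around their centre also had fold changes near 0. The longer form lay in 68 promoter sites with a median log2 fold change of 0.10 and in 123 distal sites with 0.03, and 0 of either were called by limma at the thresholds above. The core lay in 804 promoter sites with a median of 0.00, of which 4 were called lower and 1 higher in KO (0.622%, against 0.275% of promoter sites without it). In 2002 distal sites with the core the median was 0.01, and 4 were called lower and 3 higher (0.35%, against 0.424% without it). The difference between sites with and without the motif was not tested.

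Base composition of the members differed from the background in opposite directions for sites and for promoters. Over 300 bases around the site centre the median GC content was 52.5% for the 56 member sites and 56.0% for all promoter sites, and the median ratio of observed to expected CpG was 0.31 against 0.47. For the 27 RefSeq promoters of members the medians were 53.7% and 0.48, against 52.67% and 0.38 for all 32851 promoters. Neither difference was tested. By level per length the member promoter sites had a median of 191 normalized counts per kb, against 181 for all promoter sites, and the member distal sites 116 against 101.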
